A study of Mus musculus with 8 samples.

Results

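The M-CSF receptor gene Csf1r, its ligand gene Csf1 and the macrophage identity genes Spi1, Cebpa, Cebpb, Maf, Klf2, Klf4 and Adgre1 were followed in RNA-Seq of mouse macrophages with and without knockdown of the long noncoding RNA MAARS. They were chosen by symbol for what they are known to do, but with earlier results of these data known, as were the other gene lists. Counts of called genes in them are therefore a description. Each symbol matched 1 Ensembl gene. These are 9 of the 49315 genes in the count table, and all 9 were among the 13051 genes with enough counts to be tested. The cells were bone marrow-derived macrophages (BMDMs) from C57BL/6 mice, cultured in medium with 10 ng/ml mouse M-CSF and transfected by Lipofectamine 3000 with a gapmeR at 25 nM. A gapmeR is a short antisense oligonucleotide that directs RNase H to cleave its target RNA. One group of 4 libraries (replicates 2, 5, 6 and 7) received negative control #1, and the other group of 4 libraries (replicates 9, 11, 13 and 15) received a gapmeR against MAARS. Both groups therefore shared the strain, the M-CSF in the medium and the transfection. The groups differed in the oligonucleotide as well as in MAARS, and the libraries include no untransfected group. Effects of MAARS loss and of the oligonucleotides themselves therefore cannot be told apart. Below, MAARS knockdown stands for having received the gapmeR against MAARS. The labels do not say whether the libraries of a group came from separate mice or cultures, so the p-values measure only the spread between these libraries.

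M-CSF is the growth factor that carries monocyte progenitors to macrophages and keeps macrophages alive, and it acts through a receptor tyrosine kinase encoded by Csf1r. PU.1, encoded by Spi1, is the ETS factor without which macrophages do not form, and it works beside the C/EBP factors on the enhancers of myeloid genes, the Csf1r locus among them. MAF helps to hold macrophages out of the cell cycle, KLF2 and KLF4 restrain inflammatory gene expression in myeloid cells, and Adgre1 encodes F4/80, the surface protein by which mouse macrophages are usually recognised.

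Total counts on genes were 19287279 to 20567123 in the control libraries and 20839671 to 24541205 in the MAARS gapmeR libraries, so every MAARS gapmeR library was deeper than every control library. Counts of MAARS (Gm14461) were 238, 296, 240 and 249 in control replicates 2, 5, 6 and 7, against 163, 161, 159 and 135 in MAARS gapmeR replicates 9, 11, 13 and 15. As CPM, the counts of a gene scaled to a common library total with TMM factors, MAARS fell from 13.1 ± 1.36 to 6.82 ± 0.845 (SD, n = 4 in each group), a log2 fold change of -0.95 (edgeR, adjusted p = 5.8e-05). Of the 13051 genes tested, edgeR's quasi-likelihood test called 5919 at an adjusted p under 0.05, or 45.4%, with 21.3% higher and 24% lower after MAARS knockdown. The 2 groups of libraries did not overlap for 42.1% of the genes tested. Counts against the 9 genes are to be read beside these shares, because a change was common in this comparison. The median log2 fold change of all genes tested was 0.01.

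Among the 9 genes, Csf1r and Maf rose, and Spi1, Cebpb, Klf2 and Klf4 fell. Csf1, Cebpa and Adgre1 did not pass the test. That is 6 of 9 genes called, where 45.4% of all genes tested were called, and 2 higher and 4 lower, where the shares over all genes were 21.3% and 24%. The median log2 fold change of the 9 genes was -0.11. The fold changes ran from -1.04 for Klf4 to 0.49 for Maf. In 5 of the 9 genes (Csf1r, Spi1, Maf, Klf2 and Klf4) the groups did not overlap, where the share over all genes tested was 42.1%. In bulk RNA, fewer cells of a kind and less RNA per cell cannot be told apart, and this holds for each value given here.

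**Figure D1:**
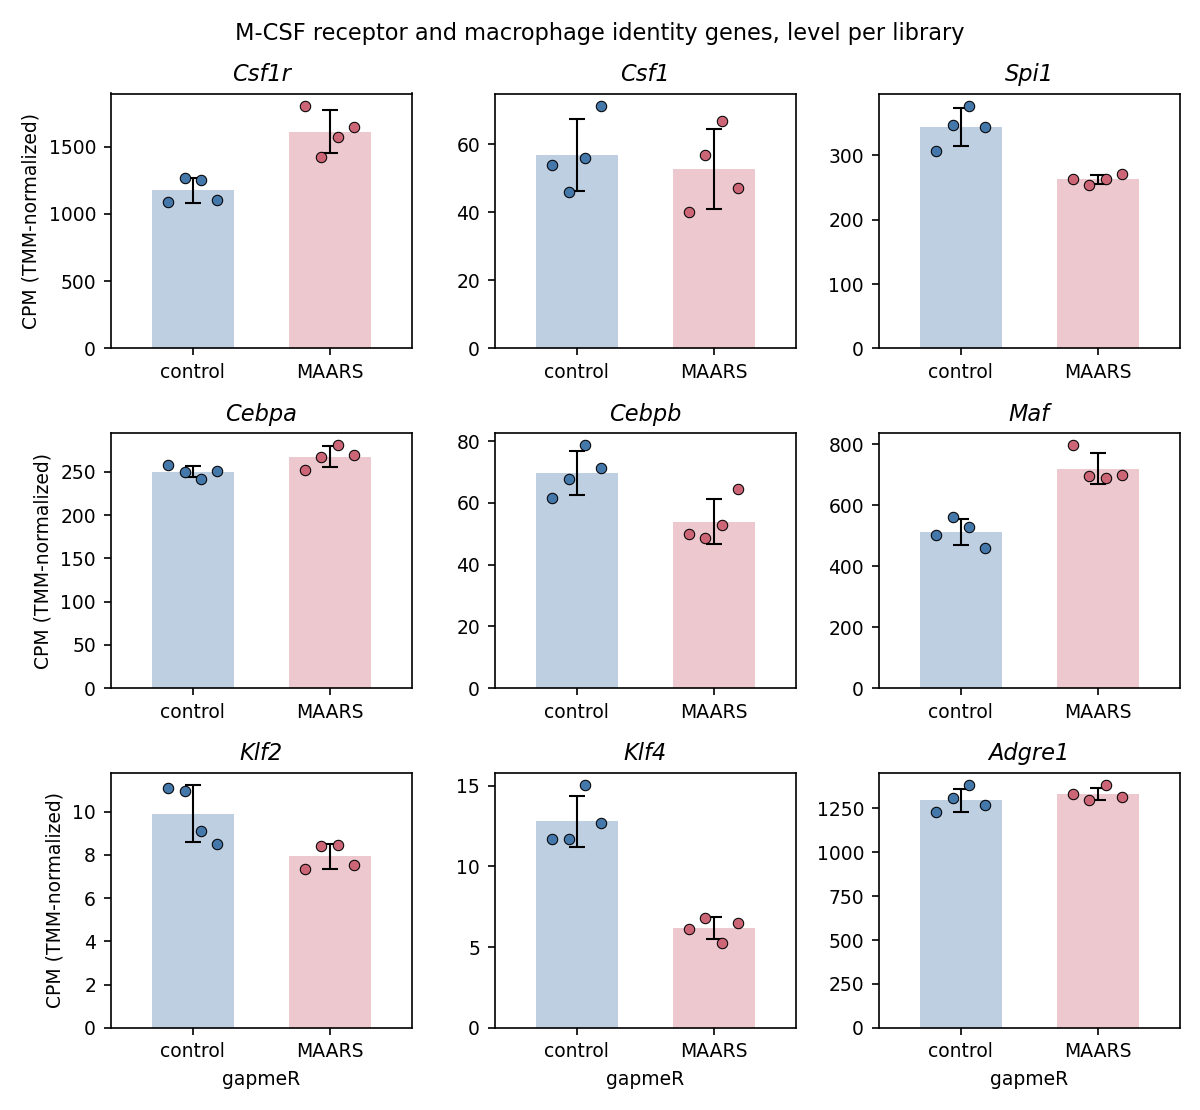
Level of each of the 9 genes in TMM-normalized CPM on linear axes from 0, with 1 point per library, bars at the mean and error bars of 1 SD (n = 4 control gapmeR libraries in blue, 4 MAARS gapmeR libraries in red). The points of the groups are apart for Csf1r, Spi1, Maf, Klf2 and Klf4, narrowly so for Klf2, and they overlap for Csf1, Cebpa, Cebpb and Adgre1.

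Csf1r (ENSMUSG00000024621; chromosome 18, 61100598 to 61132149, plus strand, GRCm38) stood at 1091, 1264, 1252 and 1102 CPM in control replicates 2, 5, 6 and 7. With MAARS gapmeR it stood at 1806, 1421, 1569 and 1646 CPM in replicates 9, 11, 13 and 15. The lowest MAARS gapmeR library was above the highest control library. The mean rose from 1177 ± 93.7 to 1611 ± 161 CPM (SD, n = 4), which is 36.8% by edgeR's fit (log2 fold change 0.45, standard error 0.0787, adjusted p = 0.000784). The 95% interval of the log2 fold change was 0.28 to 0.62. A two-sided exact permutation test of the mean log2 CPM gave p = 0.0286, the smallest p that 4 libraries against 4 can give. Of the exon bases of Csf1r, 15.1% overlap exons of Hmgxb3 on the opposite strand. Hmgxb3 itself was listed at 27.9 ± 2.10 CPM with control and 23.9 ± 3.01 CPM with MAARS gapmeR (SD, n = 4). With the strand setting of the counting not given, the part of Hmgxb3 reads in the Csf1r result was not tested.

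Csf1, the gene of the ligand (chromosome 3, 107741048 to 107760469, minus strand), was much less abundant than its receptor, with 10.8 against 204 CPM per kilobase of exon in the control group. It was measured at 54.1, 46.0, 56.1 and 71.4 CPM in control replicates 2, 5, 6 and 7 and at 40.0, 56.9, 66.9 and 47.2 CPM in MAARS gapmeR replicates 9, 11, 13 and 15. Both groups covered nearly the same range. Their means were 56.9 ± 10.6 and 52.7 ± 11.7 CPM (SD, n = 4), and the log2 fold change of -0.11 did not pass the test (edgeR, adjusted p = 0.595, with a two-sided exact permutation p = 0.629). The 95% interval of -0.45 to 0.23 on the log2 scale covers moderate changes in both directions, so changes in Csf1 within it are not excluded by these libraries. Without control replicate 7, the highest control library, the estimate turned to 0.02. Csf1 moved from library to library with Col1a1, a collagen gene of stromal cells, which was picked out after its values had been seen. Col1a1 stood at 288, 214, 355 and 484 CPM in control replicates 2, 5, 6 and 7 and at 345, 448, 581 and 372 CPM in MAARS gapmeR replicates 9, 11, 13 and 15. Within each group the libraries had the same order for both genes, with control replicate 7 and MAARS gapmeR replicate 13 at the top. The part of stromal cells in the Csf1 level was not tested. The counts are of transcripts in the culture, and the M-CSF protein added to the medium is not part of them.

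Among the other ligands and receptors of the colony-stimulating factor system, 1 gene passed the test. IL-34, the alternative ligand of the same receptor, gave 1 to 8 counts per library and was not tested, and Csf2 and Csf3, the genes of GM-CSF and G-CSF, had no counts in any library. Of 11 relatives of Csf1r and Csf1 in the list, 7 could be tested, and 1 of these fell (14.3%), where 24% of all genes tested did. With TMM factors in edgeR, and with DESeq2 and limma-voom, 0 rose (21.3% of all genes). Pdgfrb had an unadjusted p under 0.05 in edgeR, and it was called higher with upper-quartile factors, with no filter, and without control replicate 7 or MAARS gapmeR replicate 9. The GM-CSF receptor alpha chain gene Csf2ra was at 175.9 CPM with control and 175.6 CPM with MAARS gapmeR, with a 95% interval of the log2 fold change of -0.10 to 0.10. For the common beta chain gene Csf2rb the log2 fold change was -0.01, with an interval of -0.19 to 0.16. Csf2rb2, a closely related copy of Csf2rb in the mouse, was the gene that fell, from 292 to 213.9 CPM (log2 fold change -0.45, edgeR, adjusted p = 0.00173). How reads shared by the copies were counted is not given in the sources used here, so the split between Csf2rb and Csf2rb2 is uncertain. The G-CSF receptor gene Csf3r had a log2 fold change of -0.17 (edgeR, adjusted p = 0.129). The receptor kinases nearest to the M-CSF receptor, Kit, Pdgfra and Pdgfrb, were each under 5 CPM in both group means and did not pass the test in the fit with all libraries, and Flt3 was too low to be tested.

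Downstream of the receptor, genes changed in both directions. The list held 26 genes for adaptors, kinases, phosphatases and the sheddase that act with or on the M-CSF receptor. Of these, 8 rose (30.8%) and 7 fell (26.9%), against 21.3% and 24% of all genes tested, and the median log2 fold change was 0.02. Among those that rose, the smallest p belonged to the Src-family kinase gene Fyn (34.3 to 46.7 CPM, log2 fold change 0.45), followed by Cbl, the ubiquitin ligase that sends the activated receptor to degradation (194.5 to 248 CPM, 0.35), and by the adaptor gene Gab2 (97.4 to 125 CPM, 0.37). Among those that fell, it belonged to Vav1, a guanine nucleotide exchange factor (288 to 194.5 CPM, log2 fold change -0.57). Ptpn6, which encodes the phosphatase SHP-1 that damps receptor signalling, fell from 342 to 234 CPM (-0.55). By edgeR, the adjusted p of these 5 genes was between 7.12e-06 and 0.000825. The largest fall in the list was that of the Src-family kinase gene Fgr. It was at 6.50, 7.74, 11.6 and 10.0 CPM in control replicates 2, 5, 6 and 7 and at 2.93, 2.27, 2.76 and 2.43 CPM in MAARS gapmeR replicates 9, 11, 13 and 15. The groups were far apart (edgeR, log2 fold change -1.79, adjusted p = 2.46e-05).

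**Figure D2:**
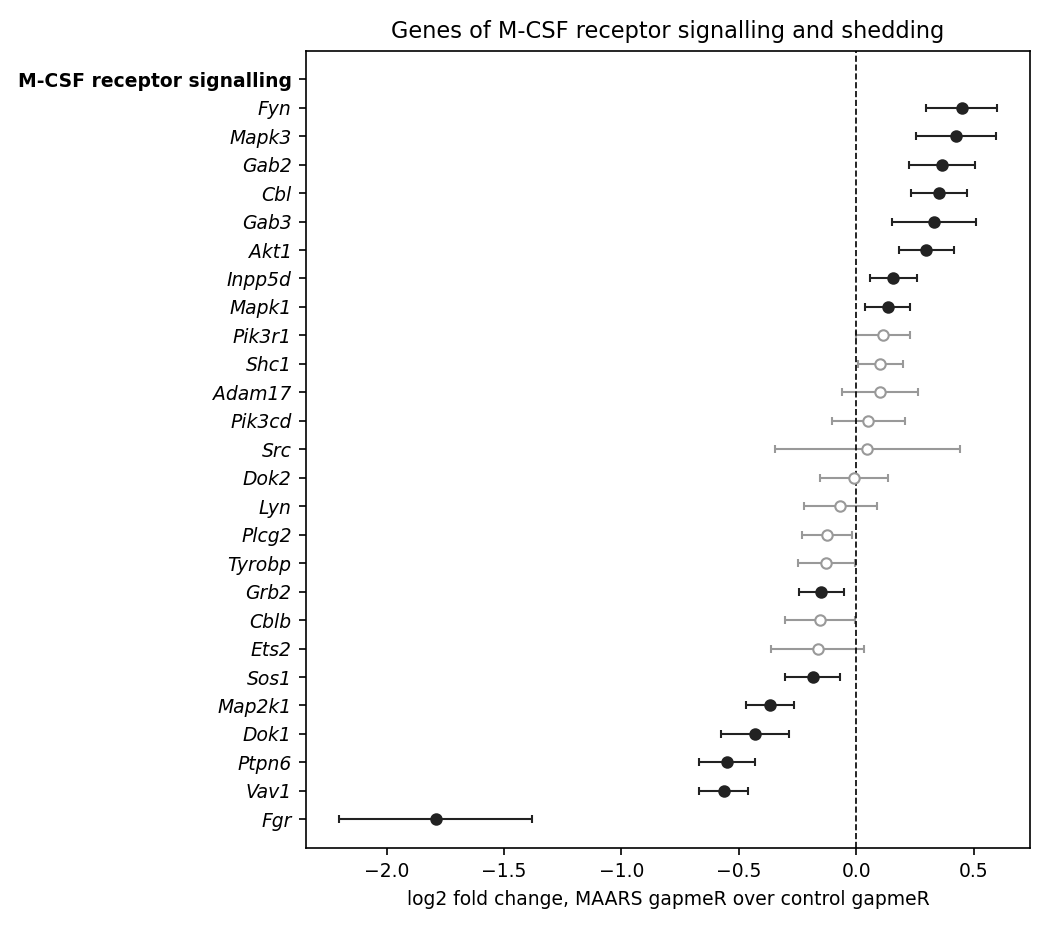
Log2 fold change of 26 genes of M-CSF receptor signalling and shedding, MAARS gapmeR over control gapmeR (horizontal axis, 4 libraries a group), with bars for 95% intervals, filled black points for an edgeR adjusted p under 0.05 and open grey points for the rest. Points lie on both sides of 0, from Fgr at -1.79 to Fyn at 0.45, with 8 called above 0 and 7 below.

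Spi1, the gene of PU.1 (chromosome 2, 91082390 to 91115756, plus strand), changed between the groups in the opposite direction to Csf1r. It was at 306.5, 347, 377 and 345 CPM in control replicates 2, 5, 6 and 7 and at 263, 254, 263 and 270.5 CPM in MAARS gapmeR replicates 9, 11, 13 and 15. All MAARS gapmeR libraries were below all control libraries, and they lay closer together than the controls did. The mean fell from 344 to 262.7 CPM, a change of -23.6% (edgeR, log2 fold change -0.39, standard error 0.0596, adjusted p = 0.000335, with a two-sided exact permutation p = 0.0286, again the smallest possible). Csf1r over Spi1, a ratio of CPM, was 3.42 in the control group and 6.11 in the MAARS gapmeR group as geometric means, and the log2 ratio lay between 1.68 and 1.86 in the control libraries and between 2.49 and 2.78 in the MAARS gapmeR libraries. Spic, the gene of the related ETS factor SPI-C of red pulp and bone marrow macrophages, was at 10.9 and 12.9 CPM and did not pass the test (edgeR, log2 fold change 0.23, adjusted p = 0.225). Spib was too low to be tested.

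Of the C/EBP genes in the set, Cebpb, whose product acts in mature and activated macrophages, fell. Cebpa, whose product starts the myeloid programme in progenitors, did not pass the test, and the difference between the fold changes was not tested. Both are genes of a single exon. Their promoters, from 250 bases before to 50 bases after the RefSeq start (GRCm38.p6), are printed here because the genes belong to the same family and the signs of their fold changes were opposite. That of Cebpa is chr7:35119043-35119342 on the plus strand and that of Cebpb is chr2:167688665-167688964 on the plus strand. Capitals mark TTGCGNNA, a core of C/EBP sites, and TGACG, a half-site of cAMP response elements, on either strand.
Cebpa: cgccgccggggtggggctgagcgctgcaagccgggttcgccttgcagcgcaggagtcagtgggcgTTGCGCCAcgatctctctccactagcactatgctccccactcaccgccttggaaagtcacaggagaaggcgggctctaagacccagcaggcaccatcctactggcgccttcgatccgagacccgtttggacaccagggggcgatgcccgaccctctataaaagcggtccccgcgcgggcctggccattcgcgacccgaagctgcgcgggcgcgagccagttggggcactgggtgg
Cebpb: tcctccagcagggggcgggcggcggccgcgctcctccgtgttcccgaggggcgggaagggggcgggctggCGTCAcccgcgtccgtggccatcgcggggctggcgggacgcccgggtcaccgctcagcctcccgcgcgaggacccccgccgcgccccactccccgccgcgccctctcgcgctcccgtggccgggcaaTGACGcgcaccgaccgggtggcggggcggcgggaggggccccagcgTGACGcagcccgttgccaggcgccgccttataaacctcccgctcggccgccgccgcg
TTGCGNNA was found at 1 place in the Cebpa promoter, 185 bases before the start, and at 0 in that of Cebpb, while TGACG was found at 3 places in the Cebpb promoter and at 0 in that of Cebpa. Over 32851 promoters of the same length, 3.51% hold TTGCGNNA at least 1 time and 20.8% hold TGACG at least 1 time. These shares give no background for 3 matches in 1 window. Of the bases in the windows, 67.3% were G or C for Cebpa and 80.7% for Cebpb, where the median of all promoters was 52.7%. The matches describe letters in these windows and do not show binding.

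Cebpa was at 258, 249.8, 242 and 251 CPM in control replicates 2, 5, 6 and 7 and at 252, 268, 281 and 269.7 CPM in MAARS gapmeR replicates 9, 11, 13 and 15. The groups overlapped at replicate 9, which lay inside the control range. The means of 250 ± 6.44 and 267.5 ± 11.9 CPM (SD, n = 4) gave a log2 fold change of 0.10 with a 95% interval of -0.0017 to 0.20, which did not pass the test (edgeR, adjusted p = 0.0999, with a two-sided exact permutation p = 0.0571). With upper-quartile scaling instead, under which the median of all genes moved up by 0.06 and the share of higher genes among all called went from 47% to 60.4%, Cebpa had a log2 fold change of 0.16 and passed (edgeR, adjusted p = 0.015).

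Cebpb was at 61.6, 67.7, 78.6 and 71.2 CPM in control replicates 2, 5, 6 and 7. It was at 49.9, 48.6, 52.8 and 64.6 CPM in MAARS gapmeR replicates 9, 11, 13 and 15. MAARS gapmeR replicate 15 was above control replicate 2, and the other MAARS gapmeR libraries were below all controls. The mean fell from 69.8 ± 7.11 to 54.0 ± 7.29 CPM (SD, n = 4; edgeR, log2 fold change -0.37, standard error 0.0955, adjusted p = 0.00838), while the two-sided exact permutation test gave p = 0.0571. Of the exon bases of Cebpb, 20.7% overlap exons of Tmem189 on the opposite strand. Tmem189 stood at the higher CPM and fell as well, from 222.9 ± 3.64 to 190.3 ± 17.4 CPM (SD, n = 4; edgeR, log2 fold change -0.23, adjusted p = 0.00933). The strand setting of the counting is not given in the sources used here, and the part of Tmem189 reads in the Cebpb result was not tested.

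Among the other 5 members of the C/EBP family, 2 rose and 2 fell, where 21.3% and 24% of all genes tested did. Ddit3, which encodes the stress-induced factor CHOP, showed the largest change of the family. It was at 124, 124.6, 135 and 137 CPM in control replicates 2, 5, 6 and 7 and at 45.8, 69.3, 69.6 and 63.4 CPM in MAARS gapmeR replicates 9, 11, 13 and 15. Every MAARS gapmeR library was thus well below every control library (edgeR, log2 fold change -1.07, adjusted p = 2.1e-05). Cebpg rose from 68.7 to 81.9 CPM and Cebpd from 12.5 to 16.0 CPM, by 0.25 and 0.36 on the log2 scale. Of the exon bases of Cebpd, 15% overlap exons of Spidr on the opposite strand. For Ddit3, 6.13% overlap other exons on the same strand and 4.73% on the opposite strand. The part of these overlaps in the results was not tested. Cebpz had a log2 fold change of -0.17 that barely passed (edgeR, adjusted p = 0.0464) and lost its call under 10 of the 14 alternative fits. Cebpe was near 1 CPM and did not pass the test.

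Maf (chromosome 8, 115682942 to 115707794, minus strand) rose. It was at 503, 560, 528 and 461 CPM in control replicates 2, 5, 6 and 7 and at 796, 696, 689 and 698 CPM in MAARS gapmeR replicates 9, 11, 13 and 15. The groups did not overlap, and replicate 9 stood above the other MAARS gapmeR libraries. The mean rose by 40.4%, from 513 ± 41.8 to 720 ± 51.2 CPM (SD, n = 4; edgeR, log2 fold change 0.49, standard error 0.0684, adjusted p = 0.000182, with a two-sided exact permutation p = 0.0286). Without replicate 9 the log2 fold change was 0.43.

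The small MAF genes, whose products lack the activation domain of MAF, moved in both directions. Maff rose from 1.25 to 2.30 CPM (edgeR, log2 fold change 0.88, adjusted p = 0.00315) and Mafg from 106.6 to 126 CPM (0.24). Mafk fell from 56.7 to 40.8 CPM (edgeR, log2 fold change -0.47, adjusted p = 0.000258). These 3 genes were all called, 2 higher and 1 lower, where 45.4% of all genes tested were called. Mafa was too low to be tested and Nrl had no counts.

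Klf2 and Klf4 both fell, and both were among the least abundant of the 9 genes. Their promoters (RefSeq, GRCm38.p6, 250 bases before to 50 after the start) are shown because the genes belong to the same family and both were called lower. The Klf4 promoter is chr4:55532426-55532725 on the minus strand and that of Klf2 is chr8:72318812-72319111 on the plus strand. Capitals mark the GC box GGGCGG and the letters CACCC, each on either strand, which are the kinds of site that KLF and SP factors bind.
Klf4: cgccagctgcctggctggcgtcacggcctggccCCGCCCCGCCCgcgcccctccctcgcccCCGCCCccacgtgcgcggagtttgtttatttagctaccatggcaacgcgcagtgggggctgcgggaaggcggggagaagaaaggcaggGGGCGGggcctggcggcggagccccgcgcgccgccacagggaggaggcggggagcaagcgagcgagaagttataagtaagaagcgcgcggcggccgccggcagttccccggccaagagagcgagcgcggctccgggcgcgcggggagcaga
Klf2: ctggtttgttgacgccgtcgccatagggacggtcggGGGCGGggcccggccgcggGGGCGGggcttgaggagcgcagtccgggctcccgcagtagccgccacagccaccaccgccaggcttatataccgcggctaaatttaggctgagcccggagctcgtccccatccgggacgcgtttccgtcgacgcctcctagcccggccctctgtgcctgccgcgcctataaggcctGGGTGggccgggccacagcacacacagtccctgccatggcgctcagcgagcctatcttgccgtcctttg
The Klf4 promoter holds 4 GC boxes, the first 2 of which share 1 base, and 0 matches of CACCC. The Klf2 promoter holds 2 GC boxes and 1 match of CACCC. Among 32851 promoters of that length, 35.7% hold GGGCGG and 57.5% hold CACCC, so a match to either is common. Of the bases in these windows, 74.3% were G or C for Klf4 and 69.3% for Klf2, where the median of all promoters was 52.7%.

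Klf4 (chromosome 4, 55527143 to 55532466, minus strand) showed the largest change of the 9 genes. It was at 11.7, 11.7, 15.04 and 12.7 CPM in control replicates 2, 5, 6 and 7 and at 6.15, 6.80, 5.29 and 6.50 CPM in MAARS gapmeR replicates 9, 11, 13 and 15. The highest MAARS gapmeR library was far below the lowest control library. The mean went from 12.8 ± 1.56 to 6.19 ± 0.657 CPM (SD, n = 4), a change of -51.5% (edgeR, log2 fold change -1.04, standard error 0.114, adjusted p = 3.36e-05, with a two-sided exact permutation p = 0.0286).

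Klf2 (chromosome 8, 72319033 to 72321656, plus strand) fell less. It was at 11.1, 10.9, 9.09 and 8.50 CPM in control replicates 2, 5, 6 and 7 and at 7.33, 8.39, 8.455 and 7.54 CPM in MAARS gapmeR replicates 9, 11, 13 and 15. The groups were separated by a narrow margin, between control replicate 7 and MAARS gapmeR replicate 13. The mean went from 9.91 ± 1.32 to 7.93 ± 0.578 CPM (SD, n = 4; edgeR, log2 fold change -0.32, standard error 0.111, adjusted p = 0.0351, with a two-sided exact permutation p = 0.0286). This call was lost with upper-quartile factors (edgeR, log2 fold change -0.26, adjusted p = 0.0775). It was lost as well when control replicate 2 or 5 or MAARS gapmeR replicate 9 or 15 was left out, each time with a log2 fold change between -0.30 and -0.26.

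Of 15 other KLF genes, 9 could be tested, of which 3 rose (33.3%) and 2 fell (22.2%), where the shares of all genes tested were 21.3% and 24%. Klf6, an immediate early gene, fell from 443 to 315 CPM (edgeR, log2 fold change -0.49, adjusted p = 1.26e-05). It was between 438 and 451 CPM in the control libraries and between 296 and 329 CPM in the MAARS gapmeR libraries, so the groups were apart. Klf13, which was also lower, changed by -0.17 on the log2 scale, and that call was lost with upper-quartile factors (edgeR, adjusted p = 0.0835). Klf7 rose from 12.6 to 18.8 CPM, Klf8 from 2.38 to 3.77 CPM, and Klf9, a target of glucocorticoids, from 13.1 to 19.4 CPM, with log2 fold changes of 0.57, 0.66 and 0.57. Of the exon bases of Klf7, 39.4% overlap antisense genes. Klf3, Klf10, Klf11 and Klf16 did not pass the test, and Klf14 and Klf17 had no counts.

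**Figure D3:**
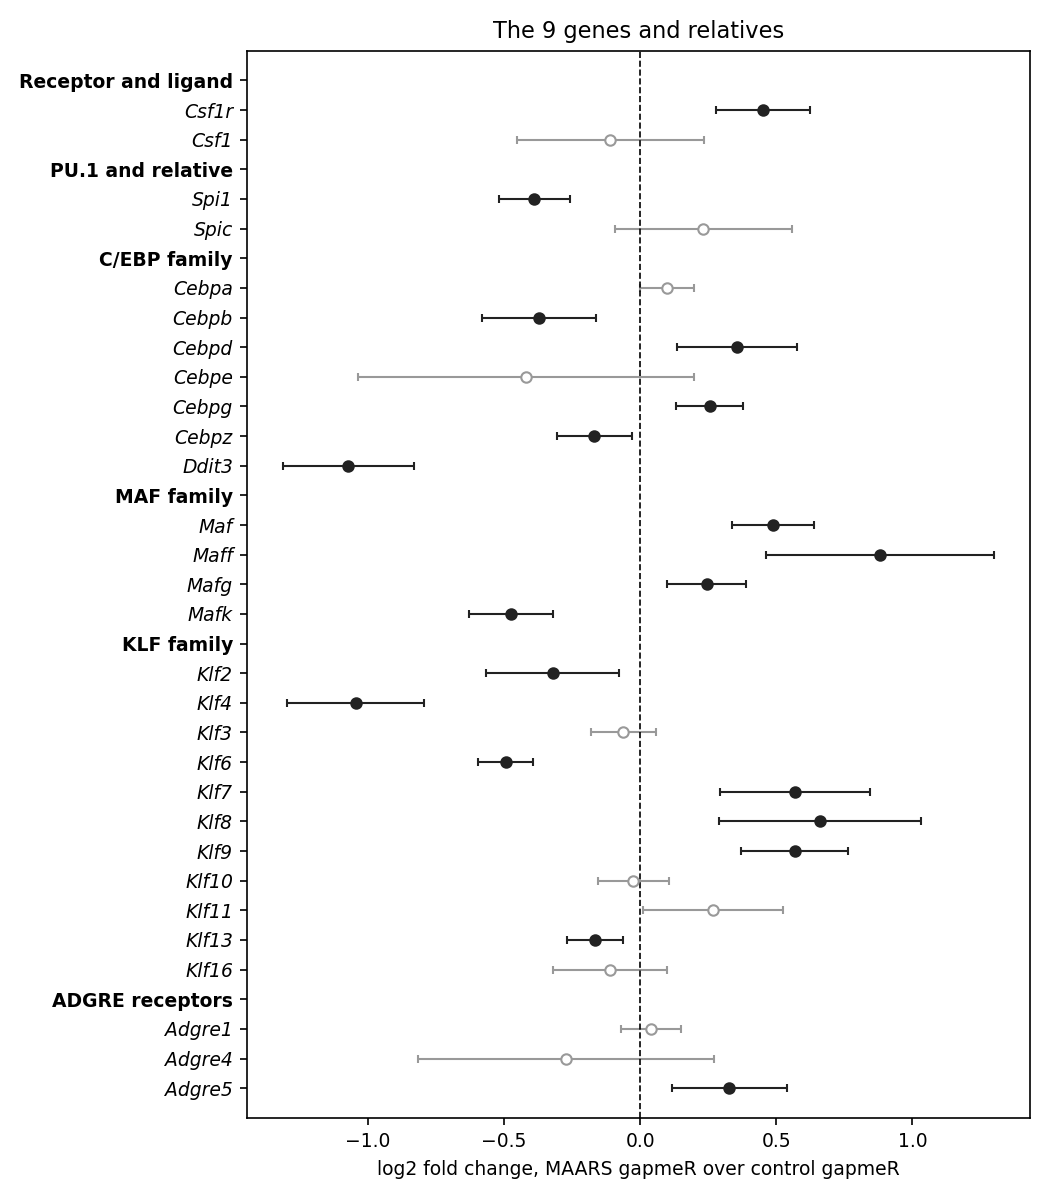
Log2 fold change of the 9 genes and relatives by family, MAARS gapmeR over control gapmeR (horizontal axis, 4 libraries a group), with bars for 95% intervals, filled black points for an edgeR adjusted p under 0.05 and open grey points for the rest. The C/EBP, MAF and KLF families each have called genes on both sides of 0, among them Maf at 0.49 and Mafk at -0.47.

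Adgre1 (chromosome 17, 57358691 to 57483527, plus strand) changed least of the 9 genes. It was at 1227, 1308, 1380 and 1268 CPM in control replicates 2, 5, 6 and 7 and at 1332, 1297, 1382 and 1316 CPM in MAARS gapmeR replicates 9, 11, 13 and 15. The groups lay over one another. Their means were 1296 ± 65.3 and 1332 ± 36.4 CPM (SD, n = 4), with a log2 fold change of 0.04 (edgeR, adjusted p = 0.553, with a two-sided exact permutation p = 0.343). The 95% interval of -0.07 to 0.15 leaves room for a small change in either direction. Among its relatives, Adgre5, the gene of CD97, rose from 105.0 to 131.9 CPM (edgeR, log2 fold change 0.33, adjusted p = 0.0164), with 23.8% of its exon bases overlapping exons on the opposite strand. Adgre4 was at 11.8 and 9.78 CPM and did not pass the test. The ratio of Csf1r to Adgre1, in CPM, was 0.907 with control and 1.21 with MAARS gapmeR as geometric means.

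Levels were compared between genes per kilobase of merged exon length. In the control libraries the order was Adgre1 (400.2 CPM per kilobase), Csf1r (204), Spi1 (128), Cebpa (94.9), Maf (62.2), Cebpb (46.4), Csf1 (10.8), Klf2 (5.37) and Klf4 (4.19). Klf2 and Klf4 overlapped over the control libraries, and every other pair of neighbours was apart. After MAARS knockdown, Spi1 at 97.5 and Cebpa at 101.5 CPM per kilobase overlapped over the libraries, as did Spi1 and Maf at 87.3. The remaining neighbours were apart, Klf2 at 4.29 and Klf4 at 2.03 CPM per kilobase included. The 3 factor genes that had been spread from 62.2 to 128 CPM per kilobase thus lay between 87.3 and 101.5. With the length of the longest transcript in place of merged exons, Spi1, Maf and Cebpa took the places 3, 4 and 5 in the MAARS gapmeR group, at 129, 113 and 102 CPM per kilobase.

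**Figure D4:**
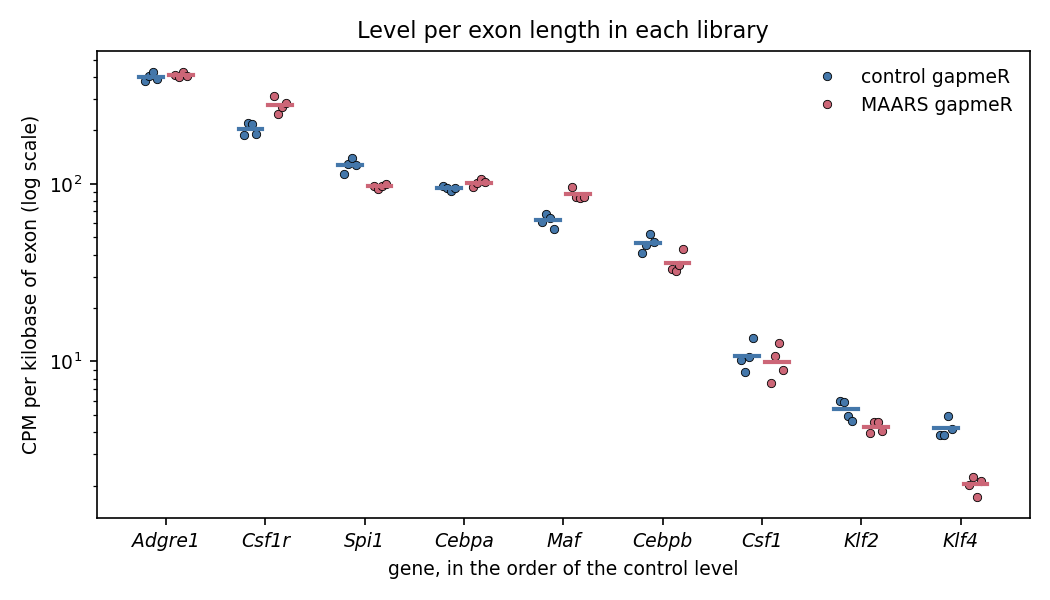
CPM per kilobase of merged exon for the 9 genes on a logarithmic axis, with 1 point per library and lines at the group means (4 control gapmeR libraries in blue, 4 MAARS gapmeR libraries in red). The control means run from Adgre1 at about 400.2 to Klf4 at 4.19, and Spi1, Cebpa and Maf lie closer together with MAARS gapmeR than with control.

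The genes whose level followed Csf1r most closely from library to library were sought among 8667 genes with a mean of at least 10 CPM, by Pearson's r of log2 CPM over the 8 libraries after each group mean was subtracted. They were Cd302 (r = 0.99), Ap2a2 (r = 0.985) and Numbl (r = 0.981). Maf had an r of 0.799 with Csf1r, the highest of the other 8 genes, and Csf1 had the lowest, -0.701. Spi1, whose fold change was opposite in sign to that of Csf1r, had an r of 0.588 with it within the groups. For Adgre1 the nearest were Nod1 (r = 0.973), Psmg4 (r = 0.967) and Igbp1 (r = 0.966), and Spi1 came first among the 9 genes, with an r of 0.841. These values are a description. They rest on 8 libraries that share their totals and scaling between genes, and they are the highest among all genes searched.

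Other transcription factors of myeloid cells moved in both directions. Of 22 tested, 6 rose (27.3%) and 5 fell (22.7%), close to the shares over all genes of 21.3% and 24%. Egr2, an early gene of M-CSF signalling and macrophage differentiation, rose from 4.61 to 7.49 CPM (edgeR, log2 fold change 0.70, adjusted p = 0.000543). Fli1 and Runx1 rose, with log2 fold changes of 0.20 and 0.19, and Runx1 lost its call without control replicate 7 (log2 fold change 0.17) or without MAARS gapmeR replicate 9 (0.16). Id2, an inhibitor of helix-loop-helix factors, fell from 249.5 to 132 CPM (-0.92), Nr1h3, the gene of the sterol sensor LXR alpha, from 39.0 to 23.9 CPM (-0.71), and Elf1, of the ETS family, by 0.28.

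Macrophage surface and effector genes, by which the label of the cells was checked, were abundant in every library, with a summed level of 36400 to 40700 CPM in the control group and 36300 to 38600 CPM in the MAARS gapmeR group. Of 20 tested, 7 rose (35%) and 10 fell (50%), beside 21.3% and 24% of all genes tested. Mrc1, the gene of the mannose receptor CD206, rose from 673 to 1164 CPM, Fcgr3 from 537 to 723 CPM and the lipopolysaccharide co-receptor gene Cd14 from 99.6 to 166 CPM. Fcgr1, which encodes the high-affinity IgG receptor, lay between 594.5 and 992 CPM in the control libraries. It fell to between 151 and 249 CPM in the MAARS gapmeR libraries, with no overlap (edgeR, log2 fold change -2.09, adjusted p = 7.12e-06). The scavenger receptor gene Msr1 fell from 792 to 414 CPM, and Cd68 from 2162 to 1710 CPM. The summed level of the list therefore stayed in a similar range while its members moved in both directions. The most abundant genes weigh most in this sum. Among them, named here after their values had been seen, Lyz2 rose from 9402 to 13170 CPM and Mpeg1 fell from 7120 to 5518 CPM.

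Several other lists moved beside these genes, and their part in the results above was not tested. All 10 interferon-stimulated genes of the list fell, where 24% of all genes did, from a summed level of 4790 to 7460 CPM in the control libraries to 334 to 1080 CPM in the MAARS gapmeR libraries. Cxcl10, Rsad2 and Isg15 were those with the smallest p, with log2 fold changes of -4.66, -3.35 and -3.44. Of 12 proliferation genes, 5 rose (41.7%) and 1 fell (8.33%), beside 21.3% and 24% of all genes. The other 6 were not called. Mki67 rose from 89.8 to 181 CPM, Ccna2 from 39.8 to 79.6 CPM and Ccnb1 from 26.3 to 48.8 CPM. Ccnd1, the cyclin gene that M-CSF induces, fell from 152 to 88.1 CPM (edgeR, log2 fold change -0.79, adjusted p = 0.0113). Its groups overlapped, with MAARS gapmeR replicate 11 at 114.6 CPM and control replicate 5 at 104.7 CPM.

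Markers of other cells that a marrow culture could hold were also summed. Dendritic cell markers were at 1.33 to 2.92 CPM in the control libraries and 1.6 to 2.15 CPM in the MAARS gapmeR libraries. Only 1 of the 8 could be tested, and it was not called, where 45.4% of all genes tested were. With DESeq2, with no filter, or without control replicate 2 or any 1 MAARS gapmeR library, 1 dendritic cell marker was called lower. With no filter, 1 was also called higher. Lymphoid markers were below 0.5 CPM in all libraries, and 0 of 5 could be tested. Granulocyte and progenitor markers summed to 88.0 to 249 CPM and 89.8 to 142 CPM. Of 8 tested, 1 fell (12.5%), where 24% of all genes tested did. It was Cd34, with a log2 fold change of -2.16 (edgeR, adjusted p = 1.76e-05). Without control replicate 5, or with no filter, 3 granulocyte and progenitor markers were called lower. Osteoclast markers summed to 94.9 to 117 CPM and 84.8 to 92.2 CPM, with no counts of Calcr. Of 3 tested, 1 fell (33.3%, beside 24% of all genes tested), which was Acp5, lower by 0.75 on the log2 scale. Stromal and endothelial markers summed to 442 to 1010 CPM and 697 to 1200 CPM, nearly all of it Col1a1 and Col1a2, which are named here after their values had been seen. By edgeR, DESeq2 and limma-voom 0 of 7 tested passed the test (1, Pdgfrb, at an unadjusted p under 0.05 in edgeR). In edgeR, 45.4% of all genes tested were called. The stromal calls turned on single libraries and settings. Without control replicate 7, 3 markers were called higher, and without MAARS gapmeR replicate 9 or with upper-quartile factors 1 was. Without control replicate 5, 2 were called lower, and with no filter 2 were higher and 1 lower. The ranges of the groups overlapped for all of these lists except the osteoclast markers. Whether cells of these kinds contributed to the levels of the 9 genes was not tested.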

How the data were processed

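RNA-Seq of ribodepleted total RNA from BMDMs was read in pairs on an Illumina instrument. Per the labels, the authors trimmed reads with Trimmomatic 0.36, aligned them with STAR 2.5.2b to GRCm38 and counted them per gene with featureCounts (Subread 1.5.2). The deposited table holds unnormalized read counts of 49315 genes. The strand setting and the handling of multi-mapped reads are not given in the sources used here. All columns were used, and groups came from the labels. Reads counted without molecular identifiers set the precision, with 19287279 to 24541205 counts per library. Between libraries of a group the chi-square was 4.24 to 15.1 per gene, above sampling noise. Each library was treated as 1 sample, but the chi-square cannot tell whether the libraries came from separate mice or cultures.

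Genes were filtered with filterByExpr (minimum count 10, minimum total 15), scaled with TMM factors (0.955 to 1.03) and compared with edgeR 4.0.16 (glmQLFit, glmQLFTest) in R 4.3.3, with Benjamini-Hochberg adjustment over 13051 genes. The adjusted p-values, fold changes and CPM in the text come from this fit, and single genes were also compared by exact permutation of 8 libraries. Alternatives were RLE and upper-quartile factors, DESeq2 1.42.0 (the method of the study), limma-voom 3.58.1, no filter, a mean count of at least 10, and each library left out. The fit was tested on simulated counts. Positions, exon lengths and overlaps came from GENCODE M21, which held 99.3% of the genes, and promoters from RefSeq (GRCm38.p6), which gave 5 of the 9 genes. Csf1r, Spi1, Maf and Adgre1 were not matched there.

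The 9 genes and all gene lists were chosen with earlier results of these data known. Genes of the families of the 9 were named freely, and of each other list the 3 with the smallest p in each direction among those called, and markers with no counts. For likeness, 3 genes were named for Csf1r and 3 for Adgre1. Genes named outside this rule are marked as such. Some genes of these lists are not reported here.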

Additional observations from a re-analysis of the deposited data

Results flagged for a closer look

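In 128 groups of 4 libraries (64 genes in both groups), 5 had 1 library apart from the other 3 by a Dixon test, and chance gives about 1 in 20. The only one of the 9 genes among them was Maf, at 796.4 CPM in MAARS gapmeR replicate 9 and 688.8 to 697.9 CPM in the other MAARS gapmeR libraries. Without that library its log2 fold change was 0.43 and passed the test (edgeR, adjusted p = 0.000489).

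The others were genes named beside them. Csf2ra was at 182.0 CPM in control replicate 6 and 173.5 to 174.7 CPM in the other controls. Klf13 was at 152.0 CPM in control replicate 2 and 168.7 to 169.8 CPM in the other controls. Cd14 was at 187.3 CPM in MAARS gapmeR replicate 15, with 158.0 to 161.1 CPM in the rest of its group. Cxcl10 was at 2.206 CPM in MAARS gapmeR replicate 13, with 0.8668 to 0.9549 CPM in the rest of its group.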

How the results depend on the processing

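Over 14 alternative fits of the 9 genes, 119 of 126 fold changes kept their direction and their side of the threshold, and 125 kept their direction. The exceptions were Csf1, Cebpa and Klf2. Upper-quartile factors brought Cebpa to a log2 fold change of 0.16 (called) and Klf2 to -0.26 (no longer called). With 1 library left out, Klf2 ranged from -0.39 to -0.26 and Csf1 from -0.24 to 0.0186, the latter without control replicate 7. The longest transcript as length moved 3 of the 9 genes in the order of levels in the MAARS gapmeR group. The cause of these moves was not tested.

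For the other 55 named genes, 736 of 770 fold changes stayed on the same side, 13 reversed, 13 weakened and 8 passed the threshold newly. None of the reversed values was called, and ranges are over all libraries left out. They were Csf2ra with RLE factors (0.0040), upper-quartile factors (0.0603) and DESeq2 (1.744e-05) and without control replicate 6 or MAARS gapmeR replicate 9 or 13 (-0.0234 to 0.0141), Csf2rb with upper-quartile factors (0.0486) and without control replicate 6 or MAARS gapmeR replicate 11 (-0.0669 to 0.0378), Klf3 with upper-quartile factors (0.0015), Klf10 with upper-quartile factors (0.0384) and without MAARS gapmeR replicate 11 (-0.0652 to 0.0078), and Pdgfra without MAARS gapmeR replicate 13 (-0.0166 to 0.403). The 8 new calls were Pdgfrb with upper-quartile factors (0.61), with no filter (0.55) and without control replicate 7 (0.69) or MAARS gapmeR replicate 9 (0.69), Klf11 with upper-quartile factors (0.33) and without MAARS gapmeR replicate 9 (0.33), and Csf3r (-0.25) and Adgre4 (-0.48) without control replicate 2. Of 420 list counts, 387 stayed within 1.5 times and the rest moved by at most 3 genes.

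No paired analysis was run, because the labels give no pairing of libraries between the groups. At these depths, Klf2 and Klf4, at the lowest CPM of the 9 genes, are measured less precisely than Csf1r or Adgre1, and changes in Csf1 within its interval are not excluded.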
